A study of Homo sapiens with 9 samples.

Results

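The 10 genes described here belong to the BCL2 family and were measured in A549, a cell line established from a human lung adenocarcinoma. They were taken by symbol from the deposited count and FPKM tables, and 10 of 10 were found among 62257 gene rows. The genes are BCL2, BCL2L1, MCL1 and BCL2L2, which favour survival, and BAX, BAK1, BID, BAD, BCL2L11 and PMAIP1, which favour death. They were chosen by name and role, not by their values in these libraries, but with earlier results of these data known.

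The cells were cultured for 96 h with apoptotic extracellular vesicles (apoEVs), membrane particles shed by dying cells, or with phosphate-buffered saline. In STS_apoEV the vesicles came from death caused by staurosporine, which blocks many protein kinases. In DDP_apoEV they came from death caused by cisplatin, a DNA-crosslinking platinum compound. Control cells received the saline. Each group held 3 libraries. The source cells and the dose of the vesicles are not stated in the labels, and cells given a drug without vesicles were not analysed here. Separate cultures are not stated either, so the p-values cover only library-to-library spread, which may be technical.

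Proteins of the BCL2 family decide whether the outer membrane of the mitochondrion stays closed. BAX and BAK1 are the effectors, which assemble into pores and let cytochrome c out, and the survival proteins hold them in check. The BH3-only proteins, such as BIM (encoded by BCL2L11), NOXA (PMAIP1), BID and BAD, carry a short helix with which they occupy the survival proteins or engage the effectors. NOXA binds mainly MCL1, BAD binds BCL2, BCL-xL (encoded by BCL2L1) and BCL-w (BCL2L2), and BIM binds all of the main survival proteins. Much of this control acts on protein, which was not measured here. The counts also sum all splice forms of a gene, so the long survival form and the short death form of BCL2L1 are not separated.

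Total counts per library were 13799950 to 14816996 (STS_apoEV), 15949255 to 16526399 (DDP_apoEV) and 14356195 to 15492993 (control). Of 8 markers of A549 or airway epithelium, all were detected, with EPCAM lowest at 1.28 to 3.69 CPM (counts divided by the scaled library size). They summed to 25390 to 27410 CPM in STS_apoEV, 19900 to 21800 CPM in DDP_apoEV and 27680 to 28850 CPM in control. Against control, 2 of the 8 were higher and 5 lower with STS_apoEV (edgeR, adjusted p under 0.05). With DDP_apoEV 0 were higher and 5 lower than in control. Between the vesicle types 5 were higher and 0 lower with STS_apoEV. Over all genes, 32.8%, 15.5% and 39.7% passed in these comparisons. The 4 markers of alveolar type 2 cells lay below 1 CPM in every library, and SFTPA1 had 0 reads. The 5 leukocyte markers summed to 14.4 to 19.7 CPM in STS_apoEV, 11.3 to 11.8 CPM in DDP_apoEV and 8.55 to 12.3 CPM in control, with CD14 as the only one to reach 1 CPM, while PTPRC, the defining leukocyte gene, had 0 to 3 reads per library. The 3 endothelial markers summed to 2.53 to 4.32 CPM in STS_apoEV, 1.16 to 1.27 CPM in DDP_apoEV and 1.32 to 1.76 CPM in control. Of these, PECAM1 averaged 2.51, 0.436 and 0.160 CPM in the same order, CDH5 0.929, 0.730 and 1.28 CPM and VWF 0.135, 0.0609 and 0.0879 CPM. The 4 fibroblast markers summed to 2.53 to 3.78, 1.89 to 2.41 and 2.39 to 2.99 CPM. The 3 erythroid markers summed to at most 0.188 CPM in any library. The part of all these markers in the results below was not tested. A filter on low counts left 16947 genes for testing, all 10 members among them. Between any of the 3 groups 6 of 10 members differed, where 45.1% of all genes did (edgeR, adjusted p under 0.05).

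In length-scaled levels (FPKM, fragments scaled by gene length and library size) the members spanned a wide range. In control libraries BAX was the most abundant at 43.4 ± 2.89 FPKM, followed by MCL1 at 33.5 ± 1.12 and BCL2L1 at 29.5 ± 2.10 FPKM (mean ± SD, n = 3). BAD, BID and PMAIP1 came next at 19.5 ± 0.690, 15.7 ± 0.630 and 15.0 ± 0.112 FPKM, then BCL2L2 at 7.31 ± 0.221 and BAK1 at 6.48 ± 0.576 FPKM. BCL2L11 had 1.29 ± 0.192 FPKM and BCL2, the founding member of the family, only 0.266 ± 0.0433 FPKM. No neighbours in this order overlapped in control, although BID and PMAIP1, and BCL2L2 and BAK1, lay close together. The order differed with the vesicles. PMAIP1 stood at the top in STS_apoEV at 42.4 ± 3.77 FPKM, overlapping MCL1 (40.8 ± 1.21), which in turn overlapped BAX (37.7 ± 3.01 FPKM). BCL2L1 there had 20.6 ± 1.43 FPKM and overlapped BAD and BID. In DDP_apoEV BAX led at 39.8 ± 3.52 FPKM, and BCL2L1 (35.1 ± 1.13 FPKM) overlapped MCL1 (34.2 ± 0.810 FPKM).

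**Figure D1:**
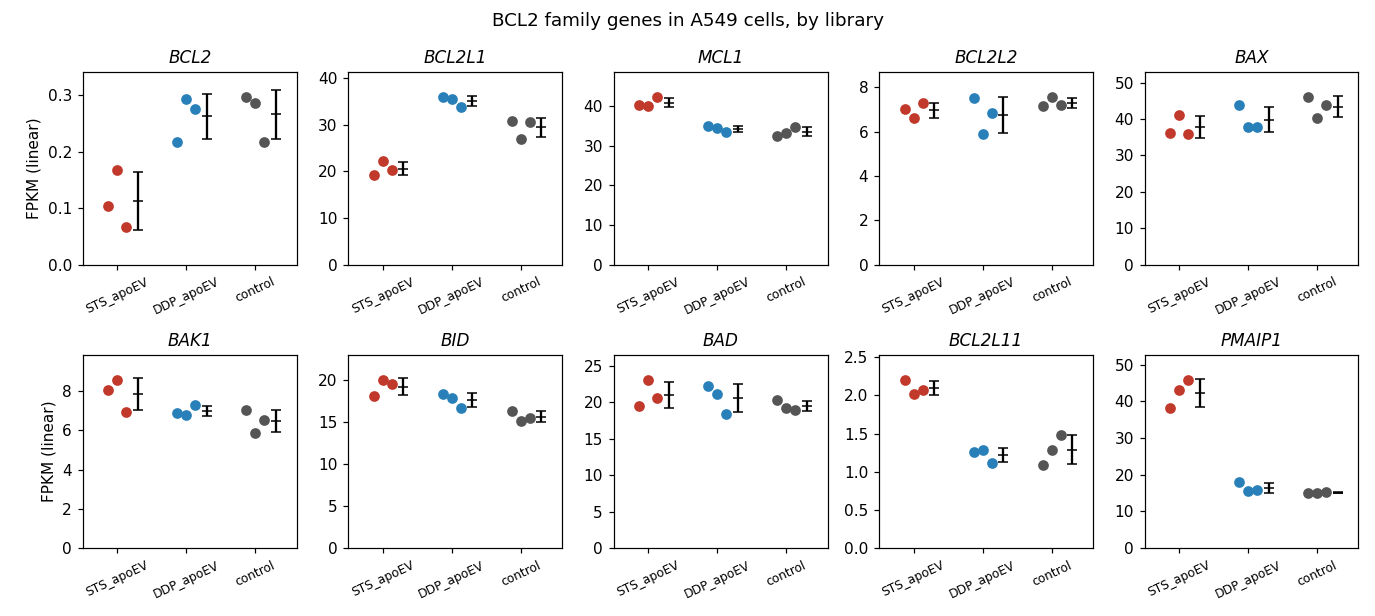
FPKM of the 10 genes (linear vertical axes, each from 0) in STS_apoEV, DDP_apoEV and control; each point is 1 library, and the black mark beside the points is the mean with its SD (n = 3). PMAIP1 averaged 42.4 FPKM in STS_apoEV, 16.4 in DDP_apoEV and 15.0 in control, while BCL2L1 averaged 20.6, 35.1 and 29.5 FPKM.

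The first comparison asked what vesicles from staurosporine-induced apoptosis changed. The death genes PMAIP1, BCL2L11 and BID and the survival gene MCL1 rose, and the survival genes BCL2L1 and BCL2 fell. That is 6 of 10 members past an adjusted p of 0.05 (4 rose and 2 fell), where 32.8% of all 16947 genes passed (15.9% higher and 16.8% lower). The median log2 fold change was 0.21 over the members and 0.01 over all genes tested. Libraries of both groups did not overlap for 6 of 10 members, against 43.3% of all genes. In bulk RNA, a change in the number of cells that express a gene and a change in RNA per cell cannot be told apart.

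PMAIP1, which encodes NOXA, had the smallest p of the 10. Its levels were 38.3, 43.0 and 45.7 FPKM in STS_apoEV libraries, against 15.0, 14.9 and 15.2 FPKM in control libraries. Every STS_apoEV library lay above every control library by a wide margin, and the control libraries hardly differed from each other. PMAIP1 rose 2.85-fold (log2 fold change 1.51, SE 0.0881, adjusted p = 5.14e-15). The gene (ENSG00000141682) lies on chromosome 18 at 59899996 to 59904305, plus strand, in hg38 coordinates as deposited, with no overlapping gene row.

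BCL2L11, which encodes BIM, was at a much lower level. It had 2.20, 2.02 and 2.07 FPKM in STS_apoEV (199 to 214 reads), against 1.09, 1.29 and 1.48 FPKM in control (113 to 144 reads). The groups did not overlap, and the gene rose 1.65-fold (log2 fold change 0.72, SE 0.149, adjusted p = 2.54e-04). BCL2L11 (ENSG00000153094; chromosome 2 at 111119378 to 111168445, plus strand) lies wholly within the span of MIR4435-2HG, a long non-coding RNA gene on the other strand with 325% of its reads. This is an overlap of whole gene spans, and the counting is not stated to use strand. Whether the 2 genes shared reads cannot be told from these values. The counts assigned to MIR4435-2HG moved the other way, at 19.4 ± 2.68 CPM in STS_apoEV and 37.0 ± 3.48 CPM in control (SD, n = 3; log2 fold change −0.93, adjusted p = 1.76e-08). ACOXL, which overlaps BCL2L11 by 1233 bases on the same strand and has 4.16% of its reads, stood at 0.971 ± 0.144 CPM in STS_apoEV and 0.115 ± 0.106 CPM in control (log2 fold change 3.01, adjusted p = 0.00142). Their part in the BCL2L11 result was not tested.

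BID, which links death receptors to mitochondria once its protein is cleaved, showed a small rise. Its levels were 18.1, 20.01 and 19.6 FPKM in STS_apoEV, against 16.4, 15.2 and 15.4 FPKM in control. The groups did not overlap, and BID rose 1.24-fold (log2 fold change 0.31, SE 0.0786, adjusted p = 0.00223). BAD, whose protein is held inactive by phosphorylation, had 19.5, 23.0 and 20.6 FPKM in STS_apoEV, against 20.3, 19.2 and 19.0 FPKM in control. The BAD groups overlapped (log2 fold change 0.12, 95% interval −0.07 to 0.32, adjusted p = 0.358). The span of BAD lies across that of GPR137 on the other strand, which has 88.9% of its read number. Whether reads were shared cannot be told, so the BAD level is uncertain to that extent.

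Among the survival genes, BCL2L1 and BCL2 were lower and MCL1 was higher with these vesicles. BCL2L1 had 19.3, 22.1 and 20.3 FPKM in STS_apoEV, against 30.8, 27.0 and 30.6 FPKM in control. The groups stood well apart, and the gene fell 1.42-fold (log2 fold change −0.50, SE 0.0785, adjusted p = 5.46e-06). BCL2 had 0.103, 0.167 and 0.0660 FPKM in STS_apoEV (12 to 32 reads), against 0.296, 0.286 and 0.217 FPKM in control (40 to 58 reads). It fell 2.33-fold without overlap (log2 fold change −1.22, SE 0.311, adjusted p = 0.00237), at a depth where counting error is large. Limma on log2(FPKM + 1) without a filter, a scale that understates the change of low genes, gave −0.19 for BCL2 (adjusted p = 0.211). MCL1, whose short-lived protein is the main partner of NOXA, had 40.3, 40.0 and 42.2 FPKM in STS_apoEV, against 32.5, 33.3 and 34.7 FPKM in control. MCL1 rose 1.23-fold without overlap (log2 fold change 0.30, SE 0.0689, adjusted p = 7.81e-04). BCL2L2 had 7.02, 6.61 and 7.29 FPKM in STS_apoEV, against 7.18, 7.57 and 7.19 FPKM in control, overlapping (log2 fold change −0.05, 95% interval −0.25 to 0.14). It lies across PPP1R3E on the other strand, which has 50.1% of its read number. ENSG00000215271, also on the other strand, has 15.5%. BCL2L2-PABPN1, which overlaps BCL2L2 by 4919 bases on the same strand, has 2.19%. Whether reads were shared cannot be told, so the BCL2L2 level is uncertain to that extent.

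BCL2L1 (ENSG00000171552) lies on chromosome 20 at 31664452 to 31723989, BCL2 (ENSG00000171791) on chromosome 18 at 63123346 to 63320128, MCL1 (ENSG00000143384) on chromosome 1 at 150560895 to 150579738 and BID (ENSG00000015475) on chromosome 22 at 17734138 to 17774770, all on the minus strand. Rows that overlap these 4 genes each held under 1% of their reads.

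The effector genes did not pass the threshold. BAX had 36.1, 41.1 and 35.8 FPKM in STS_apoEV, against 46.0, 40.3 and 43.8 FPKM in control, and BAK1 had 8.07, 8.56 and 6.96 FPKM, against 7.02, 5.88 and 6.55 FPKM. For each gene 1 STS_apoEV library lay inside the control range. The log2 fold change was −0.19 for BAX (95% interval −0.36 to −0.02, adjusted p = 0.0823) and 0.29 for BAK1 (0.04 to 0.55, adjusted p = 0.0708). These calls changed when single libraries were left out and, for BAK1, also with other settings. BAX passed without STS_apoEV replicate 2 (log2 fold change −0.26, adjusted p = 0.0234) or without control replicate 2 (−0.26, adjusted p = 0.0346). BAK1 passed without STS_apoEV replicate 3 (0.38, adjusted p = 0.0331), and also with upper-quartile factors (adjusted p = 0.0476) and with limma on log2(FPKM + 0.1) (adjusted p = 0.0494).

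**Figure D2:**
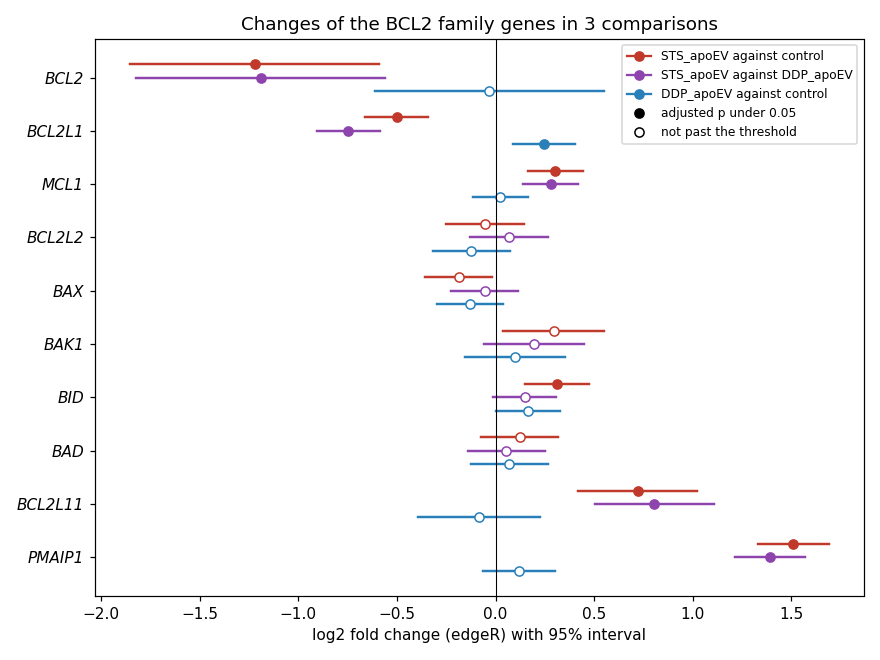
Log2 fold changes of the 10 genes (horizontal axis, edgeR) with 95% intervals for STS_apoEV against control, STS_apoEV against DDP_apoEV and DDP_apoEV against control; filled points have an adjusted p under 0.05. BCL2L1 stands at −0.50, −0.75 and 0.24 in these comparisons and PMAIP1 at 1.51, 1.39 and 0.12.

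Promoter sequence is shown for the death genes PMAIP1 and BCL2L11, which rose together, and for the survival gene BCL2L1, which moved the other way. The choice followed their direction in these data. Each run gives the 250 bases before the RefSeq start site nearest to the deposited gene start (GRCh38.p14), read 5′ to 3′ on the gene's strand, and capitals mark the motif matches described after the sequences. PMAIP1 is chr18:59899746-59899995 (plus strand), BCL2L11 chr2:111120664-111120913 (plus strand) and BCL2L1 chr20:31723964-31724213 (minus strand).
PMAIP1: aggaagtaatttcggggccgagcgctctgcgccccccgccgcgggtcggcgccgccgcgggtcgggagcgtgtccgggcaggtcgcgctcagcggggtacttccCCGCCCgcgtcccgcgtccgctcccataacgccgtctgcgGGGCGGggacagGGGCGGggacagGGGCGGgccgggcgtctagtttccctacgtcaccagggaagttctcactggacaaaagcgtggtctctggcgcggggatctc
BCL2L11: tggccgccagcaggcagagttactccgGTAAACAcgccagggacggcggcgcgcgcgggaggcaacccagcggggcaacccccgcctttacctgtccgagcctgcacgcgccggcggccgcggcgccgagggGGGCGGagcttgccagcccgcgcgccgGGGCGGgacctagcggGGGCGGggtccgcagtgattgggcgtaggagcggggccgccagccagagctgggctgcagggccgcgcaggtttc
BCL2L1: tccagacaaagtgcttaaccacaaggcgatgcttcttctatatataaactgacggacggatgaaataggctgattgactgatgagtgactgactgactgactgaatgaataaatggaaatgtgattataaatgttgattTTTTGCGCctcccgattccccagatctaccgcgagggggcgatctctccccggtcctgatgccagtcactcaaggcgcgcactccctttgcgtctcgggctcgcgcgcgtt

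Windows were found for 8 of 10 members. In all, 11 motifs were searched on both strands, and no match shown overlaps another. The PMAIP1 window held 4 matches to the GC box (GGGCGG, or CCGCCC on the other strand) and the BCL2L11 window 3, a motif present in 42.6% of 35116 promoter windows of this length. PMAIP1, BCL2L11 and BCL2L1 windows had 72.8%, 76.8% and 50.0% G and C. For BCL2L1 there were 2 RefSeq windows, and only the one nearest the deposited gene start is described. BCL2L11 also held 1 match to the FOXO element (TGTTTAC, here as GTAAACA on the other strand), present in 2.98% of windows, and BCL2L1 held 1 match to the E2F element (TTTNGCGC), present in 1.51%. These 3 windows held no match to the other 8 motifs. Those were the E-box (CACGTG, in 6.34% of windows), the cyclic AMP response element (TGACGTCA, 1.65%), the ATF4 element (TGATGNAA, 3.14%) and the AP-1 element (TGANTCA, 6.57%). The rest were the STAT element (TTCNNNGAA, 6.57%), the p53 half-site (5.57%), the NF-kB element (5.21%) and the interferon-stimulated response element (3.02%). Of the windows not shown, BAX held matches to the E-box and the GC box, BAK1 to the GC box and the p53 half-site, and BAD to the GC box. BAX, BAK1 and BAD did not pass in any comparison of the main edgeR fit. The BCL2 and BID windows held no match. These are matches of letters only.

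Vesicles from cisplatin-induced apoptosis were the subject of the second comparison. BCL2L1 rose slightly, and the remaining 9 members did not pass. With the edgeR test, 1 of 10 members passed, where 15.5% of all genes did (7.16% higher and 8.32% lower), and 2 of 10 had an unadjusted p under 0.05. The median log2 fold change was 0.05 over the members and −0.00328 over all genes tested. Libraries did not overlap for 3 of 10 members, against 32.2% of all genes.

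BCL2L1 had 36.0, 35.5 and 33.8 FPKM in DDP_apoEV, against 30.8, 27.0 and 30.6 FPKM in control. The groups did not overlap, and the gene was 1.19-fold higher (log2 fold change 0.24, SE 0.0772, adjusted p = 0.0264). It no longer passed when control replicate 2 (0.18, adjusted p = 0.184), DDP_apoEV replicate 1 (0.23, adjusted p = 0.106) or DDP_apoEV replicate 2 (0.24, adjusted p = 0.0764) was left out. Limma on log2(FPKM + 1) also gave no call (0.25, adjusted p = 0.0504).

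The 95% intervals of the other 9 members limit the size of a change, loosely for BCL2. PMAIP1 had 18.0, 15.5 and 15.8 FPKM in DDP_apoEV, each above the control libraries at 15.0, 14.9 and 15.2 FPKM, with a log2 fold change of 0.12 (95% interval −0.07 to 0.30, adjusted p = 0.435). BID had 18.4, 17.9 and 16.7 FPKM in DDP_apoEV, also above control at 16.4, 15.2 and 15.4 FPKM, with a log2 fold change of 0.16. Its 95% interval just excluded no change (0.00429 to 0.324). The edgeR p was 0.0445 before adjustment and 0.170 after it. MCL1 was the most tightly bounded member. It had 34.9, 34.4 and 33.3 FPKM in DDP_apoEV, against 32.5, 33.3 and 34.7 FPKM in control (log2 fold change 0.02, 95% interval −0.12 to 0.16). BCL2L11 had 1.26, 1.29 and 1.11 FPKM in DDP_apoEV, within the control range (log2 fold change −0.08, 95% interval −0.39 to 0.23). BCL2, with 44 to 61 reads in DDP_apoEV, had the widest interval (log2 fold change −0.03, −0.61 to 0.55). BAX (−0.13), BAK1 (0.10), BAD (0.07) and BCL2L2 (−0.12) also had log2 fold changes of small size, with overlapping libraries and adjusted p between 0.325 and 0.706.

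The third comparison set the vesicle types against each other. PMAIP1, BCL2L11 and MCL1 were higher and BCL2L1 and BCL2 lower with STS_apoEV than with DDP_apoEV. That is 5 of 10 members (3 higher and 2 lower), where 39.7% of all genes passed (20.2% higher and 19.5% lower), and libraries did not overlap for 6 of 10, against 47.5% of all genes. It shares its libraries with the comparisons against control and is no separate evidence.

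BCL2L1 differed by 0.75 on the log2 scale, at 19.3, 22.1 and 20.3 FPKM in STS_apoEV and 36.0, 35.5 and 33.8 FPKM in DDP_apoEV (log2 fold change −0.75, SE 0.0782, adjusted p = 2.38e-09). No library came near the other group. PMAIP1 was 2.62-fold higher with STS_apoEV (log2 fold change 1.39, SE 0.0871, adjusted p = 2.59e-14), BCL2L11 1.75-fold (adjusted p = 4.55e-05) and MCL1 1.21-fold (adjusted p = 0.00146). BCL2 was lower with STS_apoEV (log2 fold change −1.19, SE 0.310, adjusted p = 0.00237), but not in limma on log2(FPKM + 1) without a filter (−0.18, adjusted p = 0.199). Of the genes over BCL2L11, MIR4435-2HG on the other strand was lower (log2 fold change −1.13, adjusted p = 1.72e-10) and ACOXL on the same strand higher (2.05, adjusted p = 0.00991). PPP1R3E, across BCL2L2, was also higher (0.31, adjusted p = 0.0315). BID had a log2 fold change of 0.15 (95% interval −0.01 to 0.31, adjusted p = 0.139), BAK1 0.19 (−0.06 to 0.45), BAX −0.06 (−0.22 to 0.11), BAD 0.05 (−0.14 to 0.25) and BCL2L2 0.07 (−0.13 to 0.27), and their calls did not change with any alternative run.

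Summed by role, the death genes stood higher in STS_apoEV libraries than in all others, and the survival genes stood higher in DDP_apoEV libraries than in all others. Neither sum was a shift of its whole class. Among the death genes PMAIP1 averaged 42.4 FPKM in STS_apoEV and 15.0 in control, while BAX was at 37.7 and 43.4. Of the survival genes BCL2L1 averaged 35.1 FPKM in DDP_apoEV and 29.5 in control, MCL1 34.2 and 33.5, and BCL2L2 6.75 and 7.31. Sums without PMAIP1 or without BCL2L1 were not made. The 4 survival genes summed to 66.8, 68.9 and 69.9 FPKM in STS_apoEV, to 78.6, 76.1 and 74.3 FPKM in DDP_apoEV and to 70.7, 68.1 and 72.6 FPKM in control. The 6 death genes summed to 122, 138 and 131 FPKM in STS_apoEV, to 111, 100.4 and 97.1 FPKM in DDP_apoEV and to 106, 96.8 and 101.4 FPKM in control. The log2 ratio of survival to death sums was thus −0.93 ± 0.0664 in STS_apoEV, −0.43 ± 0.0569 in DDP_apoEV and −0.52 ± 0.0521 in control (mean ± SD, n = 3; a description with no test). PMAIP1 made up 21.3% of the summed FPKM of all 10 genes in STS_apoEV, 9.17% in DDP_apoEV and 8.75% in control. Ratios of partner genes are given likewise. MCL1 over PMAIP1 was 0.968 ± 0.0734 in STS_apoEV, 2.09 ± 0.139 in DDP_apoEV and 2.22 ± 0.0615 in control. BCL2L1 over BAX was 0.547 ± 0.0173 in STS_apoEV, 0.885 ± 0.0614 in DDP_apoEV and 0.679 ± 0.0162 in control.

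**Figure D3:**
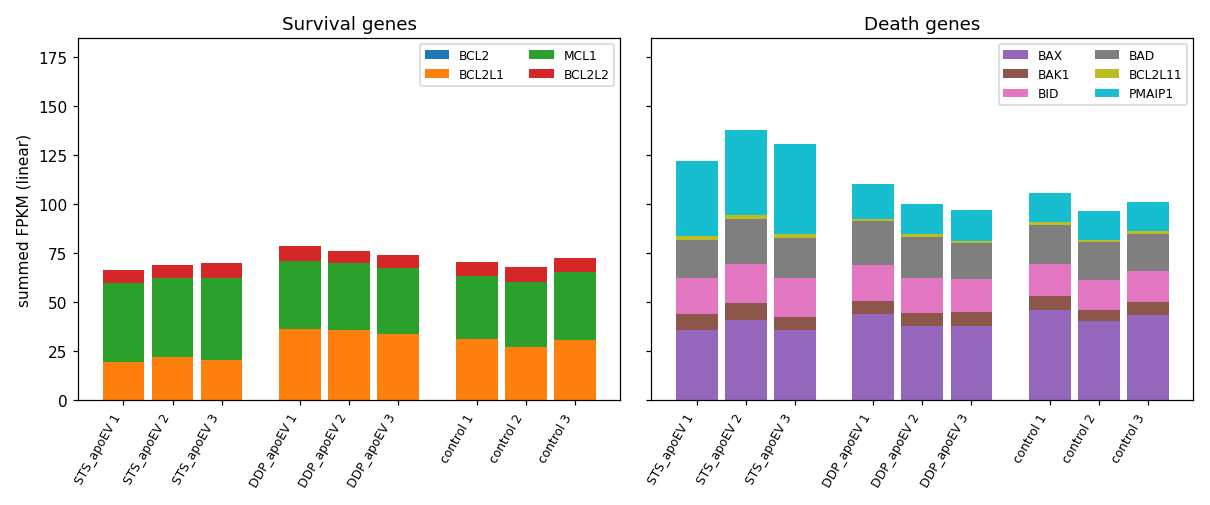
Summed FPKM (linear vertical axis from 0) of the 4 survival genes and the 6 death genes in each of the 9 libraries, stacked by gene. The death genes sum to 122 to 138 FPKM in STS_apoEV, 97.1 to 111 in DDP_apoEV and 96.8 to 106 in control, and the survival genes to 66.8 to 69.9, 74.3 to 78.6 and 68.1 to 72.6 FPKM; BCL2 is too low to be seen.

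A further 15 genes of the wider family, BNIP genes included, were listed, and 12 of them passed the filter. With STS_apoEV against control 6 rose, 2 fell and 4 did not pass (median log2 fold change 0.27), where 32.8% of all genes passed (median 0.013). BBC3, which encodes the BH3-only protein PUMA, had 5.02, 4.75 and 5.20 FPKM in STS_apoEV, against 2.49, 1.97 and 1.59 FPKM in control, and rose 2.50-fold (log2 fold change 1.32, SE 0.160, adjusted p = 6.02e-08). BMF, a BH3-only gene whose protein is tethered to the cytoskeleton, had 59 to 76 reads in STS_apoEV, against 7 to 17 reads in control, and rose 5.47-fold (log2 fold change 2.45, SE 0.358, adjusted p = 1.72e-06). BBC3 and BMF thus moved in the direction of PMAIP1 and BCL2L11, without overlap between the groups. BNIP3L, which encodes the mitophagy receptor NIX, rose 1.76-fold, at 29.0, 28.9 and 32.7 FPKM in STS_apoEV, against 17.1, 17.8 and 17.02 FPKM in control (adjusted p = 8.08e-10).

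BCL2A1, a survival gene known as an NF-kB target, rose with both vesicle types from a very low level. It had 29 to 36 reads in STS_apoEV, 31 to 41 reads in DDP_apoEV and 3 to 8 reads in control. Its log2 fold change was 2.46 with STS_apoEV (SE 0.414, adjusted p = 1.71e-05) and 2.39 with DDP_apoEV (SE 0.412, adjusted p = 6.75e-05), against the same control libraries. Between the vesicle types its log2 fold change was 0.07 (95% interval −0.61 to 0.75). BCL2L15 was lower with both, at 0.887 ± 0.0990 FPKM in STS_apoEV, 0.597 ± 0.112 FPKM in DDP_apoEV and 1.42 ± 0.128 FPKM in control (log2 fold change −0.67 with STS_apoEV, adjusted p = 0.00156, and −1.26 with DDP_apoEV, adjusted p = 9.84e-07). BCL2L12 fell with STS_apoEV (log2 fold change −0.46, adjusted p = 3.40e-04).

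Smaller changes in this list were less stable. BCL2L13 (0.27, adjusted p = 0.0112) and BNIP2 (0.26, adjusted p = 0.00755) were higher with STS_apoEV than in control. BCL2L13 was not called without control replicate 1 (adjusted p = 0.0566), and BNIP2 not without control replicate 1 (0.0825) or STS_apoEV replicate 3 (0.0524). Of the 12, 2 were higher and 1 lower with DDP_apoEV than in control (median 0.02), where 15.5% of all genes passed (median −0.00328). Besides BCL2A1 and BCL2L15, this was the hypoxia-responsive BNIP3 (log2 fold change 0.28, adjusted p = 0.0115), not called without DDP_apoEV replicate 1 (0.0507) or control replicate 3 (0.115). BOK, an effector relative (log2 fold change −0.15 with STS_apoEV and 0.18 with DDP_apoEV), the BH3-only gene BIK (0.48 and −0.21) and BNIP1 (−0.06 and 0.27) did not pass against control with either vesicle type. Between the vesicle types 7 were higher and 3 lower with STS_apoEV (median 0.23), where 39.7% of all genes passed (median 0.0268). BMF (log2 fold change 2.43), BBC3 (1.31) and BNIP3L (0.998) were among the higher ones, and BCL2L12 (−0.38) and BNIP3 (−0.28) were lower. BOK stood at −0.33 (adjusted p = 0.0596). The other 5 calls were lost when 1 library was left out. BCL2L15 (0.59, adjusted p = 0.00591) was not called without DDP_apoEV replicate 2 (0.0531). BCL2L13 (0.25, adjusted p = 0.0150) was not called without STS_apoEV replicate 2 (0.0501), DDP_apoEV replicate 1 (0.0527) or DDP_apoEV replicate 3 (0.103). BNIP2 (0.21, adjusted p = 0.0303) was not called without STS_apoEV replicate 3 (0.152) or DDP_apoEV replicate 1 (0.0723), 2 (0.107) or 3 (0.0719). BIK (0.70, adjusted p = 0.0416) was not called without STS_apoEV replicate 1 (0.170) or 2 (0.148) or DDP_apoEV replicate 1 (0.0779), 2 (0.136) or 3 (0.0623). BNIP1 (−0.34, adjusted p = 0.0449) was not called without STS_apoEV replicate 1 (0.216) or 3 (0.132) or DDP_apoEV replicate 1 (0.0687), 2 (0.0678) or 3 (0.0989). Below the filter were HRK with 1 to 14 reads per library, BCL2L14 with 0 reads in all 9 libraries, where 3 reads would be 0.183 to 0.211 CPM, and BCL2L10 with 6 to 11 reads in STS_apoEV, 0 to 2 in DDP_apoEV and 0 to 2 in control.

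**Figure D4:**
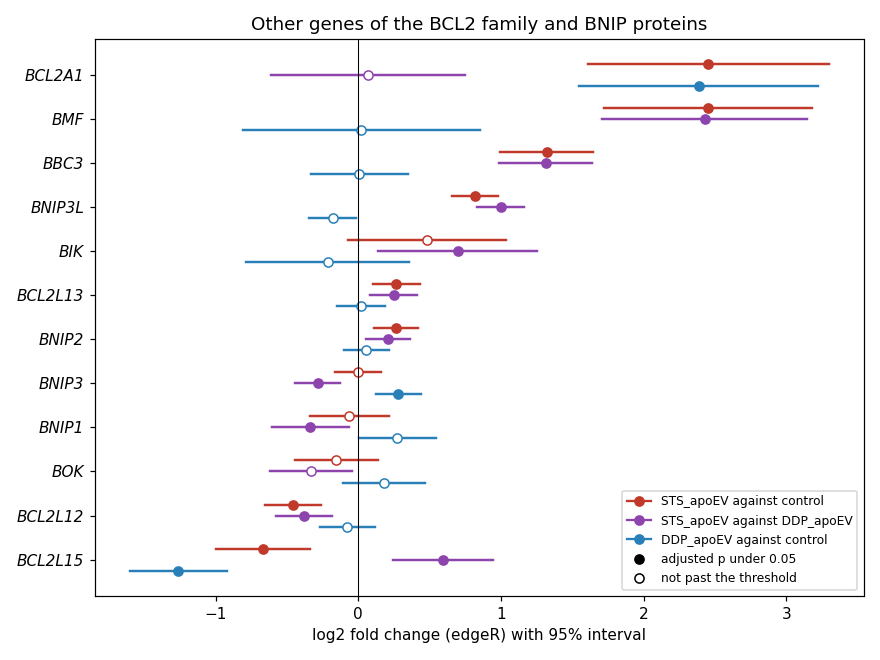
Log2 fold changes (horizontal axis, edgeR) with 95% intervals of the 12 further family and BNIP genes that passed the filter, in the same 3 comparisons; filled points have an adjusted p under 0.05. BCL2A1 stands at 2.46 with STS_apoEV and 2.39 with DDP_apoEV against control, while BMF, BBC3 and BNIP3L stand at 2.45, 1.32 and 0.82 with STS_apoEV and at 0.02, 0.01 and −0.18 with DDP_apoEV.

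Genes that act after the membrane opens moved by small amounts. Of 10 apoptosome genes and released factors, 2 rose, 1 fell and 7 did not pass with STS_apoEV against control (median 0.10). CYCS, the cytochrome c gene, fell (log2 fold change −0.34, adjusted p = 0.00111), and the caspase inhibitor gene XIAP rose (0.24, adjusted p = 0.0157). XIAP was not called without STS_apoEV replicate 1 (0.149), control replicate 1 (0.147) or control replicate 3 (0.0590). With DDP_apoEV APAF1, the scaffold of the apoptosome, fell (−0.39, adjusted p = 0.00388) and the other 9 did not pass (median 0.08). Between the vesicle types 3 were higher and 2 lower with STS_apoEV (median 0.03), with CYCS (−0.40) and AIFM1 (−0.29) lower. Over all genes, 32.8%, 15.5% and 39.7% passed in these 3 comparisons, with medians of 0.013, −0.00328 and 0.0268.

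Among 14 partners in the outer membrane and mitochondrial dynamics, 3 rose, 6 fell and 5 did not pass with STS_apoEV against control (median −0.16). The channel gene VDAC1 fell (log2 fold change −0.36, adjusted p = 9.63e-05), as did the fusion gene OPA1 (−0.46, adjusted p = 3.48e-04), and the fission gene FIS1 rose (0.46, adjusted p = 1.09e-04). With DDP_apoEV VDAC2, whose protein binds BAK1, rose (0.27, adjusted p = 0.00600) and the other 13 did not pass (median 0.06). Between the vesicle types 1 was higher and 7 lower with STS_apoEV (median −0.18). There VDAC1 (−0.41, adjusted p = 1.13e-05), DNM1L (−0.39, adjusted p = 7.23e-05) and MFN2 (−0.42, adjusted p = 1.03e-04) had the smallest p. OPA1, lower by more, stood at −0.48 (adjusted p = 1.59e-04). Of all genes, 32.8%, 15.5% and 39.7% passed in these 3 comparisons (medians 0.013, −0.00328 and 0.0268).

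Of 22 genes for turnover or sequestration of the members' proteins 21 were tested. With STS_apoEV against control 3 rose and 4 fell (median 0.01). The lowest p belonged to DYNLL1, a dynein light chain gene (log2 fold change −0.59, adjusted p = 3.22e-07), and to the 14-3-3 genes YWHAH (−0.50, adjusted p = 5.70e-06) and YWHAG (−0.40, adjusted p = 6.33e-05). With DDP_apoEV 1 rose and 3 fell (median 0.06), with the smallest p for the kinase gene PIM3 (−0.47, adjusted p = 4.67e-04), the 14-3-3 gene YWHAQ (0.33, adjusted p = 5.65e-04) and PIM1 (−0.35, adjusted p = 0.0237). PIM1 was not called without DDP_apoEV replicate 2 (0.0535), DDP_apoEV replicate 3 (0.113) or control replicate 2 (0.141). Between the vesicle types 4 were higher and 5 lower with STS_apoEV (median −0.05), with the smallest p for PIM3 (0.71), DYNLL1 (−0.53) and PIM1 (0.71). The shares of all genes that passed in these 3 comparisons were 32.8%, 15.5% and 39.7% (medians 0.013, −0.00328 and 0.0268).

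Of 17 transcription factor genes known to act on family members 15 were tested. With STS_apoEV against control 3 rose and 5 fell (median 0.11), with the smallest p for falls of E2F1 (log2 fold change −0.60, adjusted p = 2.11e-06) and STAT3 (−0.52, adjusted p = 2.14e-06) and a rise of STAT5A (1.14, adjusted p = 3.25e-06). With DDP_apoEV ETS1 (0.53, adjusted p = 6.76e-04), MYC (0.37, adjusted p = 0.00192) and STAT3 (0.23, adjusted p = 0.0301) rose and the other 12 did not pass (median 0.03). STAT3 was not called there without control replicate 1 (0.0726), 2 (0.139) or 3 (0.0543) or without DDP_apoEV replicate 1 (0.107) or 2 (0.124). Between the vesicle types 5 were higher and 4 lower with STS_apoEV (median 0.06), where ETS1 (−1.20, adjusted p = 3.48e-10), STAT3 (−0.75, adjusted p = 1.22e-09) and E2F1 (−0.80, adjusted p = 6.47e-09), all lower, had the smallest p. STAT5A differed by more and was higher (1.26, adjusted p = 4.50e-07). Among all genes, 32.8%, 15.5% and 39.7% passed in these 3 comparisons (medians 0.013, −0.00328 and 0.0268).

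Genes with the pattern most like a member were found by Pearson correlation of log2 CPM over the 9 libraries, among 12339 genes. The 9 libraries fall into 3 groups, so r is a description with no test. For PMAIP1 they were ISG15 (r = 0.990), WIPI1 (0.990) and IFI16 (0.989). For BCL2L1 they were MCM7 (0.994), ENO1 (0.992) and SLC29A1 (0.989), and for BCL2L11 SOX4 (0.982), PNRC1 (0.980) and TMEM198B (0.979).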

How the data were processed

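A549 RNA was extracted with TRIzol and made into NEBNext Ultra libraries, per the labels' protocols. The submitters' processing notes name, without roles, limma, Subread, featureCounts 1.5.0-p3, StringTie 1.3.3b, HISAT2 2.0.5 and the build hg38. The authors deposited FPKM values and raw whole-number counts for the same 62257 rows in 9 libraries, and 61399 rows matched a symbol. The 705 rows for unannotated loci (0.313% to 0.357% of counts) were kept as genes in library sizes and tests. The sources used here do not say whether counting used strand.

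Sample titles gave the groups. Counts of all 9 libraries were fitted together in edgeR 4.0.16 (R 4.3.3) after TMM scaling and the default expression filter, and tested by robust quasi-likelihood, with Benjamini-Hochberg adjustment over 16947 genes and calls under 0.05. Adjusted p-values are from it unless another test is named. SE is the log2 fold change divided by the square root of F, and intervals are at 95%. Members, lists and tests were chosen with earlier results of these data known. All genes of the wider family and, in the other lists, the called genes with the 3 smallest p in each comparison were named, except a few that are not reported here. Alternatives were other scalings, filters and fits, DESeq2 1.42.0, limma 3.58.1 on log2 FPKM, and each library left out. The fit was also run on data simulated from its own estimates, which cannot show whether the model suits these libraries. Promoters are from RefSeq.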

Additional observations from a re-analysis of the deposited data

Results flagged for a closer look

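BCL2L1 went in opposite directions with the 2 vesicle types, at a log2 fold change of −0.50 with STS_apoEV against control and 0.24 with DDP_apoEV against control. The test of the difference itself, STS_apoEV against DDP_apoEV in the same edgeR fit, gave −0.75 (adjusted p = 2.38e-09), with every STS_apoEV library below every DDP_apoEV library. Across 16 alternatives it ran from −0.80 to −0.71 and was called in all 16. The rise with DDP_apoEV against control was called in 10 of 16, with adjusted p from 0.0126 to 0.184.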

How the results depend on the processing

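PMAIP1, BCL2L11, BCL2L1, MCL1 and BID with STS_apoEV against control, and the first 4 of these against DDP_apoEV, kept their direction and call in all 16 alternatives. BCL2 did so in 13 of 14, the exception being limma on log2(FPKM + 1) without a filter, and had no value in the limma fits with a mean FPKM of at least 1. With DDP_apoEV against control the number of members called was 0 with the replicate block, with limma on log2(FPKM + 1) and with that test without a filter, and 0 to 1 with 1 library left out; the cause was not tested. No pairing by replicate number was seen over all genes tested. Deviations of same-numbered libraries correlated between −0.0847 and 0.0547, and only 2 of 18 correlated best with their own number. A pairing that touches few genes could be missed this way. With the block BCL2L1 stood at 0.24 there (adjusted p = 0.0505), and 6 and 5 members were called in the other comparisons. Members not called changed sign when 1 library was left out, with ranges of −0.16 to 0.088 for BCL2 and −0.19 to 0.029 for BCL2L11 with DDP_apoEV against control, and of −0.022 to 0.11 for BAD, −0.13 to 0.016 for BAX and −0.037 to 0.15 for BCL2L2 with STS_apoEV against DDP_apoEV. Without MCL1 the log2 ratio of survival to death sums was −2.23 in STS_apoEV, −1.28 in DDP_apoEV and −1.45 in control. Of the other named genes' alternatives, which were added after seeing the data, 769 kept direction and call and 69 lost the call, with 0 reversed. Limma on log2(FPKM + 1) without a filter ended calls for CYCS, XIAP, OPA1, MYC, STAT3, PIM1, BNIP1, BNIP2, BNIP3, BIK, BCL2L12, BCL2L13 and BCL2L15 in at least 1 comparison, and edgeR without the count filter ended those of STAT3, XIAP, BCL2L13, BIK and BNIP2. Depth limits BCL2, BMF and BCL2A1, with few reads per library.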
